A study of Mus musculus with 16 samples.

Results

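Whole renal cortex of diabetic mice was compared with that of control mice by RNA sequencing. The comparison rests on the 8 cortex libraries of a series of 16, namely the 4 labelled K-STZ and the 4 labelled K-Con, and on all genes of the cortex table. Of its 34264 genes 19228 passed a filter on low counts and were tested. By its title the series asks whether the histone methyltransferase NSD2 injures podocytes in diabetic kidney disease through Hippo signalling, and the other 8 libraries are of isolated glomeruli. All mice were wild type (WT), and all libraries carry the label batch 1. The series' design text calls the diabetic mice 24-week animals, without saying whether this is their age or the time since treatment. The diabetic group had received HFD/STZ, a high-fat diet with streptozotocin, which kills the beta cells of the pancreas, and the controls are labelled control with no diet or vehicle named. What the diet, streptozotocin and the diabetic state each contributed cannot be told apart. Sex, strain and blood glucose are not given in the labels. The labels number the libraries but do not say that each came from a separate mouse, so p-values measure only how far these samples spread, and that spread may be technical.

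The renal cortex holds the glomeruli, which filter blood, and the convoluted tubules, which take most of the filtrate back. Most of its RNA comes from the proximal tubule, which reabsorbs glucose, amino acids, phosphate and filtered protein, burns fatty acids and makes glucose. In diabetes the filtered glucose load rises, and diabetic kidney disease is known for glomerular scarring, tubular injury, infiltrating immune cells and a loss of transport function. Streptozotocin enters cells through the glucose transporter GLUT2, which the proximal tubule also carries, and damages DNA.

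Total counts were 57473100 to 69947387 in the controls and 60628981 to 72352656 in the diabetic libraries, and mitochondrial transcripts took 12.3 to 14.9% of counts. Markers of cortex were present: the proximal tubule list summed to 16392 to 24436 CPM in the controls and 16913 to 20053 CPM in the diabetic libraries, podocyte markers to 789 to 835 CPM in the controls and 703 to 767 CPM in the diabetic libraries, and the adrenal enzyme gene Cyp11a1 was at or below 0.127 CPM throughout. CPM are counts per 1000000 on scaled library sizes. Control 4 stood apart from the other controls (chi-square per gene 62.6 to 77.3 against 15.3 to 23.2 among controls 1 to 3). It was high for Slc12a1, the salt transporter of the thick ascending limb, at 878, 702, 629.9 and 2008 CPM in the controls and 867, 517, 801 and 447 CPM in the diabetic libraries, and low for Slc34a1, the main phosphate transporter of the proximal tubule, at 6194, 6480, 6285 and 3483 CPM in the controls and 3863, 3964, 3499 and 4561 CPM in the diabetic libraries. Control 3 held fat transcripts: the adipocyte hormone gene Adipoq was at 18.1 CPM against at most 0.869 CPM in any other library, and the brown fat gene Ucp1 at 46.9 against at most 0.154 CPM. Genes of the urothelium, which lines the renal pelvis, were also uneven, with Upk1b at 1.39, 0, 5.49 and 4.45 CPM in the controls and 1.66, 0.0561, 0.642 and 0.389 CPM in the diabetic libraries. Genes outside the naming rule, such as Slc12a1, Slc34a1, Adipoq and Ucp1, were chosen after their values were seen.

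The 2 groups separated along the first principal component of the 500 most variable genes (45.4% of variance), with every control below 0 and every diabetic library above it. Of the 19228 genes tested 3856 were called, 20.1% (edgeR's quasi-likelihood test, Benjamini-Hochberg adjusted p under 0.05). The diabetic level was higher for 2069 genes, 10.8% of those tested, and lower for 1787, 9.29%. The groups did not overlap for 4795 genes, 24.9%, and for 3488 of those called. Rises were larger than falls: 756 called genes were at least 2-fold higher and 168 at least 2-fold lower, and 243 and 23 passed 4-fold. The median log2 fold change (diabetic against control) was 0.70 among genes called higher, -0.39 among those called lower and 0.00 over all genes tested. With log2(FPKM + 1) and no filter 67.2% of calls were higher, against 53.7%. Values below are CPM per library or mean ± SD over n = 4 libraries per group, log2 fold changes are given ± SE, and adjusted p-values are edgeR's.

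**Figure D1:**
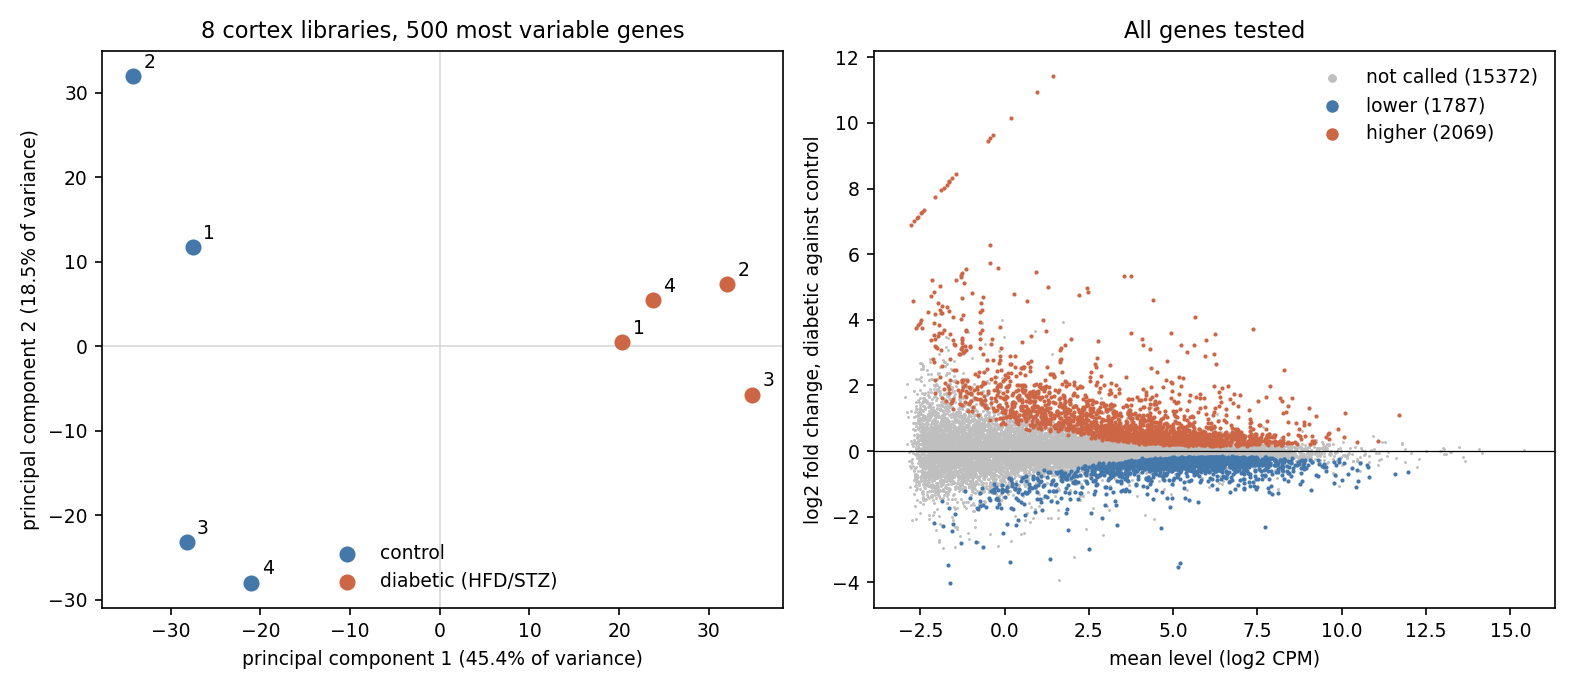
Left, the first principal component (45.4% of variance) against the second (18.5%) for the 8 libraries, numbered by replicate. Right, log2 fold change against mean log2 CPM for the 19228 genes tested, with the 2069 called higher and the 1787 called lower in colour; the line of points above 6 holds genes without counts in the controls, whose fold depends on the prior count.

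Inflammatory signalling genes rose widely. Of 30 chemokine, cytokine and NF-kB pathway genes tested 23 rose and the other 7 did not pass, with a median log2 of 1.40. Cxcl1, which encodes a neutrophil-attracting chemokine (chromosome 5, 90891241 to 90893115, GRCm38), had the largest rise of the called genes whose groups were separate and whose log2 CPM averaged 1 or more. It was at 0.668, 0.0370, 0.717 and 1.09 CPM in control libraries 1 to 4 and 12.1, 40.5, 38.8 and 14.0 CPM in diabetic libraries 1 to 4. The groups were far apart, and diabetic libraries 2 and 3 were well above 1 and 4; the log2 fold change was 5.35 ± 0.74 (adjusted p = 0.00314). Ccl2, the monocyte attractant MCP-1 (chromosome 11, 82035571 to 82037453), stood at 0.360, 0.296, 0.176 and 0.198 CPM in the controls and 2.97, 4.04, 5.78 and 3.40 CPM in the diabetic libraries. It rose 15.8-fold (3.98 ± 0.32, adjusted p = 0.000114), with diabetic library 3 the highest. Icam1, an adhesion molecule for leukocytes, rose from 15.1 ± 2.55 to 46.2 ± 8.77 CPM (1.62 ± 0.15, adjusted p = 0.000354), and Nfkb2, a subunit of the NF-kB transcription factor, from 17.2 ± 1.73 to 34.5 ± 2.92 CPM (1.01 ± 0.09). Il34, a ligand of the macrophage growth factor receptor, rose from 16.7 ± 4.56 to 48.2 ± 7.90 CPM (1.53 ± 0.21, adjusted p = 0.00225). The cytokine genes Tnf and Il1b did not pass (1.27 ± 0.65 and 1.55 ± 0.57), though Il1b did without control 1 or diabetic library 1 (adjusted p = 0.0249 and 0.0474), and Tnf was below 0.5 CPM in every library. Lif, a cytokine of the interleukin-6 family, rose from 0.333 ± 0.252 to 4.28 ± 2.01 CPM (3.66 ± 0.74, adjusted p = 0.0101); it missed the threshold without controls 3 and 4 (3.80, adjusted p = 0.0832). Tnfrsf12a, the receptor of the injury cytokine TWEAK, was among the 10 genes with the smallest adjusted p and rose from 10.54 ± 0.8496 to 40.9 ± 5.59 CPM (1.96 ± 0.11, adjusted p = 1.26e-05).

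Interferon-induced genes rose together. Of 30 tested 28 were called higher, against 10.8% of all genes, and the other 2, Ifit3 and Gbp7, did not pass (1.34 ± 0.46 and 0.71 ± 0.25), though both did without control 4 (2.05, adjusted p = 6.26e-05, and 1.02, adjusted p = 0.00167). The number higher was 21 without control 2 or diabetic library 2 or 4, 23 without control 3 or diabetic library 3, and 30 without control 4. The groups did not overlap for 23 of the 30. The median log2 was 1.22. Cxcl10, a T cell attractant induced by interferon, was at 2.76, 3.68, 3.38 and 3.39 CPM in the controls and 24.5, 28.6, 38.4 and 32.6 CPM in the diabetic libraries. Both groups were tight and did not overlap (3.23 ± 0.15, adjusted p = 5.99e-06). Bst2, which tethers budding virus to the cell surface, stood at 8.62, 8.29, 9.19 and 13.9 CPM in the controls and 29.8, 57.1, 43.9 and 49.0 CPM in the diabetic libraries. It rose 4.49-fold (2.17 ± 0.23, adjusted p = 0.000925), and control 4 was the highest control. Isg15, a ubiquitin-like modifier, rose from 1.48 ± 0.283 to 6.05 ± 0.970 CPM (2.03 ± 0.20, adjusted p = 0.000330). Irf7, a transcription factor of the type I response, rose from 11.9 ± 3.26 to 50.4 ± 14.3 CPM (2.08 ± 0.25, adjusted p = 0.00148). The mean level of the list, as log2 CPM relative to the control mean, was -0.37, -0.16, -0.05 and 0.58 in controls 1 to 4 and 0.99, 1.62, 1.40 and 1.46 in the diabetic libraries, so control 4 lay nearest to the diabetic group.

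Promoter sequences are shown for 4 of these genes because the motifs that interferon and NF-kB factors bind can be read in them. RefSeq promoters (GRCm38.p6, 250 bases before to 50 after the start) matched 22 of the interferon genes, and 12 of these, 54.5%, held the interferon-stimulated response element, searched as GAAANNGAAA on both strands. Of all 27025 genes with a promoter 3.99% held it, and of 12574 tested genes 3.87%. The NF-kB motif was found on either strand in 9 of 23 matched chemokine and cytokine genes, 39.1%, against 5.14% of all promoters and 6.17% of those of tested genes. A match is a stretch of letters and not a measured binding site. The lists were put together by known function, so these shares describe the lists and say nothing about diabetic cortex. Each sequence runs 5′ to 3′ along the strand of its gene, and capitals mark matches of the motif named here, which can overlap: the interferon element in Isg15 (chr4:156200769-156201068, - strand) and Bst2 (chr8:71537423-71537722, - strand), both motifs in Cxcl10 (chr5:92348840-92349139, - strand) and NF-kB in Cxcl1 (chr5:90890995-90891294, + strand). Bst2 also holds 1 NF-kB match, left in lower case.
Isg15: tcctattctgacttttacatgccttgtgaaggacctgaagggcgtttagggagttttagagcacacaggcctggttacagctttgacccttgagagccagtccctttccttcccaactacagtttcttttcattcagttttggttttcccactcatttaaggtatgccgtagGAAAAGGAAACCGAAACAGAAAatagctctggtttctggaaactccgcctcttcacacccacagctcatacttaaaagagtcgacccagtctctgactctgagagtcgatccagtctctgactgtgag
Bst2: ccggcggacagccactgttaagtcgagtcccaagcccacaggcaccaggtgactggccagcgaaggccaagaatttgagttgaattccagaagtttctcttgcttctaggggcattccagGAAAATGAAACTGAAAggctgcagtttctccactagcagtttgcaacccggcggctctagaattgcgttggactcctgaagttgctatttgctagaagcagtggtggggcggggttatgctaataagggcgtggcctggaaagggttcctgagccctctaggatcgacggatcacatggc
Cxcl10: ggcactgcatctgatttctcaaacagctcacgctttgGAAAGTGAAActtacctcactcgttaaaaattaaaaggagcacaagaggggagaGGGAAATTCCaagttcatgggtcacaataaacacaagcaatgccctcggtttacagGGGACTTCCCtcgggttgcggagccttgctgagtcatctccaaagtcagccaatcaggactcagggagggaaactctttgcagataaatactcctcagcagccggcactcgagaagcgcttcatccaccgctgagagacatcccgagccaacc
Cxcl1: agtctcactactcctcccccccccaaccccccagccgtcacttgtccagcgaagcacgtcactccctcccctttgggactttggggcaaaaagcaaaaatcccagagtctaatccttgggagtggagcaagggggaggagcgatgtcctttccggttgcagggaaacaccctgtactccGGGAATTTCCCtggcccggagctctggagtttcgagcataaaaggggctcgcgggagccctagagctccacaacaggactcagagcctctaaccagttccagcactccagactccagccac

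Genes that present antigen rose with them. Of 12 class I genes 10 rose (median log2 1.04), and of 8 class II genes 7 rose (median 1.49). B2m, the light chain of every class I molecule, rose from 198 ± 19.03 to 453 ± 94.5 CPM (1.197 ± 0.14, adjusted p = 0.00101). H2-Ab1, a class II chain of antigen-presenting cells, stood at 42.3, 43.4, 52.4 and 65.6 CPM in the controls and 124, 206, 187 and 166 CPM in the diabetic libraries. It rose 3.35-fold, with no overlap (1.74 ± 0.19, adjusted p = 0.000897). Class I and II genes have close copies, so their split among members is uncertain.

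Markers of immune cells were higher, and in whole tissue more cells of a type cannot be told apart from more RNA per cell. Of 20 macrophage and myeloid markers 17 rose, with a median log2 of 1.46, and the list summed to 120.1 to 212 CPM in the controls and 263 to 389 CPM in the diabetic libraries. C1qa, a chain of the complement starter C1q made by tissue macrophages, was at 5.07, 5.72, 7.01 and 11.3 CPM in the controls and 20.9, 30.7, 30.0 and 27.4 CPM in the diabetic libraries. The diabetic libraries lay 3.74-fold above (1.90 ± 0.25, adjusted p = 0.00153), and control 4 was the highest control. Lyz2, lysozyme of myeloid cells, rose from 12.5 ± 3.16 to 59.4 ± 18.997 CPM and Adgre1, which encodes the macrophage antigen F4/80, from 4.42 ± 1.52 to 10.0 ± 2.87 CPM (2.24 ± 0.27 and 1.18 ± 0.28). The 3 members that did not pass were Csf1r, Cx3cr1 and Cd163. Csf1r, the receptor of macrophage growth factor, was at 54.7, 49.8, 52.3 and 97.4 CPM in the controls and 64.1, 65.2, 62.9 and 44.9 CPM in the diabetic libraries. Its groups overlapped and control 4 was the highest of all (-0.10 ± 0.23, adjusted p = 0.807). Neutrophil genes were near the detection limit: S100a8 was at most 0.438 CPM, Camp had no count in any library, and of 4 tested only Csf3r was called (1.52 ± 0.37, adjusted p = 0.0170; 1.39, adjusted p = 0.0533 without diabetic library 2). Of 14 T and NK cell markers 9 rose (median 1.89) from a summed level of 5.42 to 10.498 CPM in the controls and 16.3 to 27.6 CPM in the diabetic libraries. Cd3e, a chain of the T cell receptor complex, was at 0.206, 0.296, 0.234 and 0.297 CPM in the controls and 0.737, 0.869, 1.57 and 1.55 CPM in the diabetic libraries. It rose 4.54-fold without overlap (2.18 ± 0.36, adjusted p = 0.00304), whereas Cd8a did not pass (0.19 ± 0.30).

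Antibody transcripts rose as well. B and plasma cell markers summed to 19.01 to 34.1 CPM in the controls and 233 to 393 CPM in the diabetic libraries, and 6 of 13 were called. Igkc, the kappa light chain constant region (chromosome 6, 70726435 to 70726966), was at 6.77, 6.46, 3.37 and 5.81 CPM in the controls and 79.4, 103, 117 and 81.6 CPM in the diabetic libraries. That was a 17.1-fold rise (4.09 ± 0.24, adjusted p = 8.14e-05). Igha, the heavy chain of mucosal IgA, rose from 11.0 ± 3.11 to 115 ± 35.0 CPM (3.40 ± 0.31), and Jchain, which joins IgA and IgM into multimers, from 2.88 ± 1.07 to 30.7 ± 11.0 CPM (3.42 ± 0.37, adjusted p = 0.00112). Ms4a1, which encodes CD20, a marker of B cells before they secrete antibody, did not pass (0.15 ± 0.87). Among immunoglobulin segments, a group chosen after the data were seen, 44 of 62 were called higher, against 10.8% of all genes (median log2 3.65). The 62 are only segments that passed the filter on low counts. They summed to 16.8 to 34.7 CPM in the controls and 256 to 465 CPM in the diabetic libraries. Segments can thus have entered through the diabetic libraries alone, so this count is no independent sign of a rise. It was 12 with at least 50 counts required in 4 libraries, and 36 to 43 with 1 library left out. These near-identical genes share reads. Complement and coagulation genes had 10 higher and 2 lower of 28 (1 lower without diabetic library 2, 3 or 4). Fgg, a fibrinogen chain, rose from 7.34 ± 0.817 to 38.8 ± 9.66 CPM (2.40 ± 0.18, adjusted p = 9.54e-05) and C3, the central complement protein, from 17.1 ± 6.87 to 132 ± 61.1 CPM (2.94 ± 0.44). F5, coagulation factor V, went the other way, from 9.23 ± 1.45 to 2.51 ± 0.434 CPM (-1.88 ± 0.18, adjusted p = 0.000275).

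Red blood cell transcripts moved against the immune markers. All 6 genes tested fell (median -1.11), and the list summed to 759 to 1338 CPM in the controls and 361 to 604 CPM in the diabetic libraries. The beta globin gene Hbb-bs was at 219, 375, 324 and 366 CPM in the controls and 170.2, 98.2, 140.3 and 132 CPM in the diabetic libraries. No diabetic value reached the lowest control (-1.25 ± 0.20, adjusted p = 0.00412), but without controls 3 and 4 the call was lost (-1.14, adjusted p = 0.0531) and 2 of the 6 genes were called. The part of blood left in the tissue in any of these results was not tested.

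**Figure D2:**
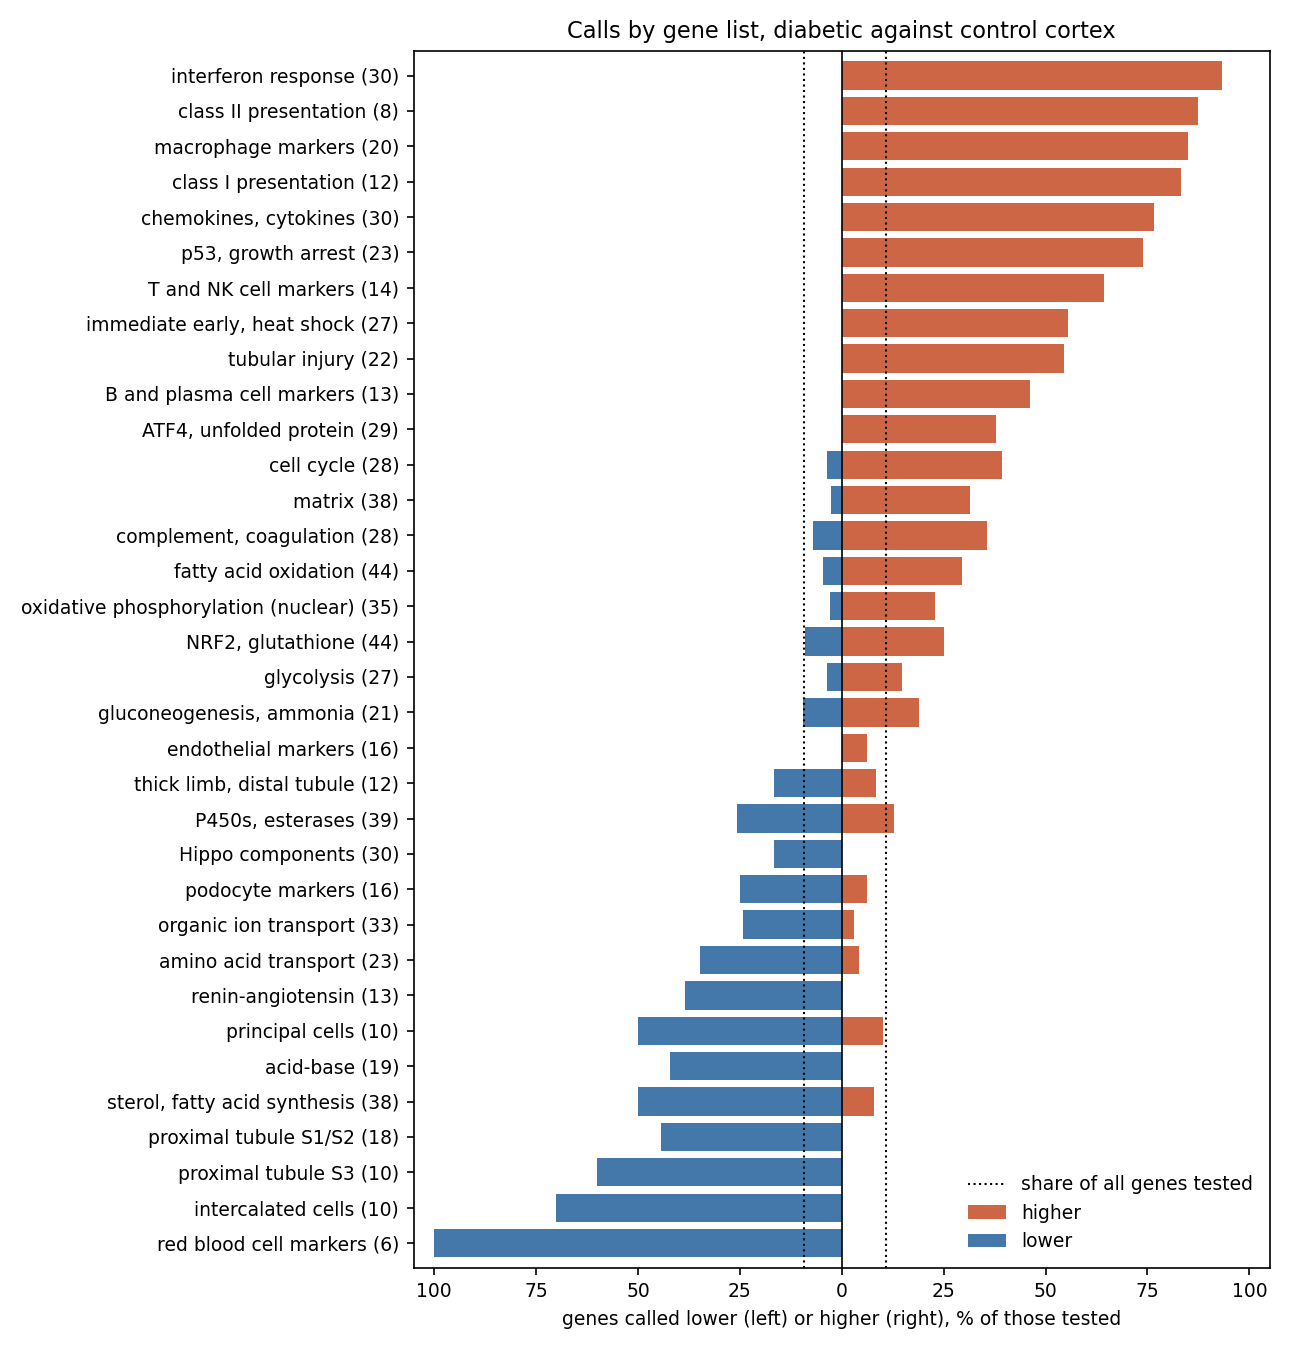
Bars give the percentage of tested genes called higher (right) or lower (left) in diabetic cortex for 34 gene lists, with the number tested in brackets. Dotted lines mark the shares over all genes tested, 10.8% higher and 9.29% lower; interferon, antigen presentation, macrophage and chemokine lists reach furthest to the right and red blood cell, intercalated cell and proximal tubule S3 lists furthest to the left.

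Tubular injury genes rose in part. Of 22 tested 12 were called higher (median log2 0.69) and the other 10 did not pass. Havcr1, which encodes KIM-1, a membrane protein that injured proximal tubule cells put on their surface (chromosome 11, 46735080 to 46779578), was at 0.994, 1.203, 1.33 and 3.08 CPM in control libraries 1 to 4 and 16.2, 54.8, 60.8 and 30.0 CPM in diabetic libraries 1 to 4. The lowest diabetic library, 1, was still well above the highest control, 4 (4.59 ± 0.57, adjusted p = 0.00207). Lcn2, the iron-binding injury marker NGAL, was at 0.634, 0.426, 0.644 and 3.05 CPM in the controls and 7.01, 18.9, 17.5 and 6.30 CPM in the diabetic libraries. Here too control 4 was the highest control and diabetic libraries 2 and 3 the highest of their group (3.36 ± 0.73, adjusted p = 0.0163). Spp1, the secreted phosphoprotein osteopontin and 1 of the 10 most abundant called genes, rose from 668 ± 93.9 to 1504 ± 531 CPM (1.17 ± 0.24, adjusted p = 0.0112; 1.17, adjusted p = 0.0978 without controls 3 and 4). Sox9, a transcription factor that repairing tubule cells switch on, rose from 0.879 ± 0.292 to 4.49 ± 1.47 CPM (2.35 ± 0.31, adjusted p = 0.00120), and Vcam1, an adhesion molecule, from 11.4 ± 3.64 to 32.9 ± 11.3 CPM (1.53 ± 0.30). Aldh1a1, an enzyme that makes retinoic acid, rose 12.2-fold, from 4.67 ± 0.899 to 56.97 ± 13.4 CPM (3.60 ± 0.20, adjusted p = 2.98e-05). Krt20, a keratin of injured epithelium, was at 0, 0, 1.41 and 0.141 CPM in the controls and 2.27, 7.34, 11.0 and 3.97 CPM in the diabetic libraries and did not pass (3.94 ± 1.24, adjusted p = 0.0632), although the groups did not overlap; without control 3 it passed (adjusted p = 0.00723). On the log2 scale the mean of the injury list above the controls was 0.99, 1.59, 1.77 and 1.12 in diabetic libraries 1 to 4. The order was the same for the macrophage list (1.02, 1.71, 1.74 and 1.18).

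**Figure D3:**
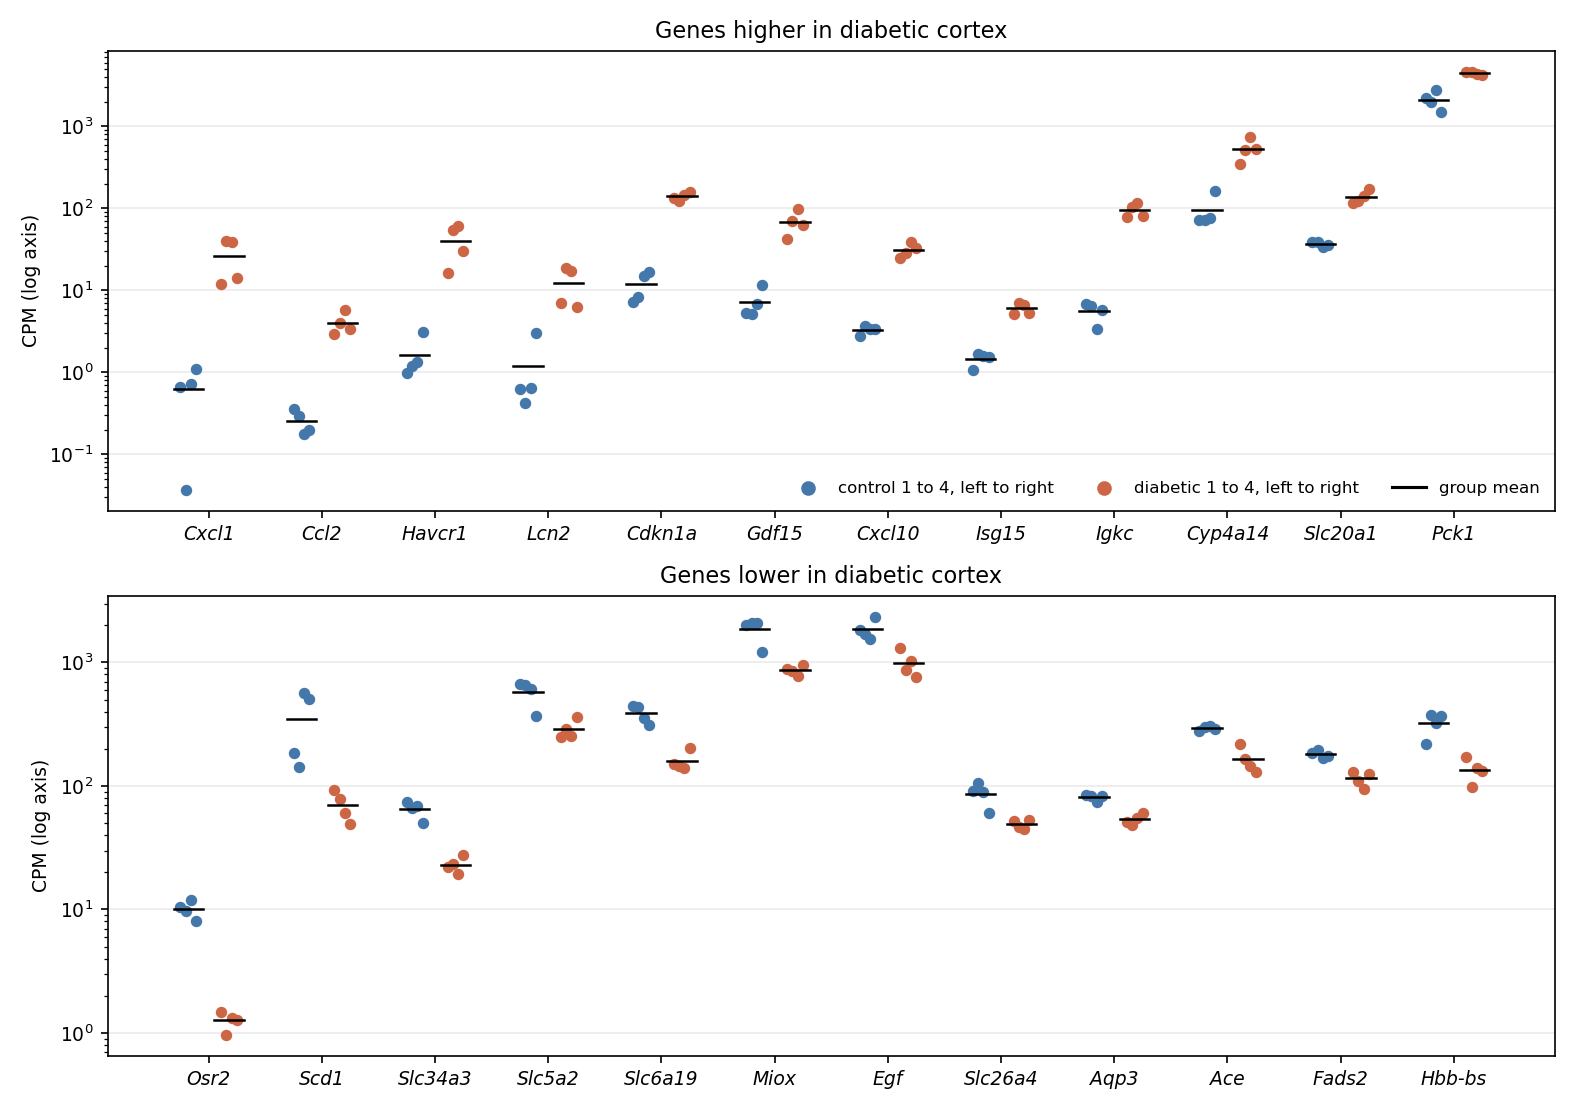
CPM in each of the 8 libraries on a log axis for 12 genes higher and 12 lower in diabetic cortex; points are libraries 1 to 4 from left to right in each group and bars are group means. Groups do not overlap for any gene drawn; Cxcl1 in control 2 is the lowest point, at 0.0370 CPM, and control 4 lies nearest the diabetic group for Miox, Slc5a2 and Slc26a4.

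Targets of the tumour suppressor p53, which halts division of cells with damaged DNA, rose broadly. Of 23 genes 17 were called higher (median log2 0.90), and 17 or 18 were with any 1 library left out. Cdkn1a, the cell cycle inhibitor p21 (chromosome 17, 29090976 to 29100727), was at 7.22, 8.33, 15.2 and 16.7 CPM in control libraries 1 to 4 and 136, 121, 146 and 157 CPM in diabetic libraries 1 to 4. The groups were far apart and each was tight beside the gap (3.56 ± 0.29, adjusted p = 0.000460). Eda2r, which encodes a receptor and is a p53 target, stood at 0.343, 0.222, 0.381 and 0.537 CPM in the controls and 9.42, 11.7, 11.6 and 10.46 CPM in the diabetic libraries. Its adjusted p of 5.99e-06 (edgeR) was the smallest of all genes and was shared with Mgst1, Cxcl10 and Psrc1 (4.84 ± 0.24). Psrc1, a spindle protein that p53 also controls, rose from 0.321 ± 0.0593 to 8.80 ± 1.69 CPM (4.76 ± 0.22). Among further targets Phlda3, an inhibitor of AKT, rose from 5.92 ± 1.54 to 34.6 ± 5.20 CPM, Zmat3, an RNA-binding protein, from 30.4 ± 2.25 to 63.6 ± 5.77 CPM, Bax, which permeabilises mitochondria, from 25.8 ± 1.28 to 46.5 ± 3.22 CPM, and Mdm2, the ligase that degrades p53, from 44.1 ± 3.99 to 86.0 ± 7.45 CPM (log2 2.54 ± 0.19, 1.07 ± 0.08, 0.85 ± 0.07 and 0.96 ± 0.08). Gdf15, a stress hormone, was at 5.35, 5.16, 6.89 and 11.5 CPM in the controls and 42.2, 69.8, 97.8 and 62.4 CPM in the diabetic libraries. Its groups were 9.36-fold apart (3.23 ± 0.35, adjusted p = 0.00130).

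Cell cycle genes rose in part, 11 of 28 with 1 lower (median log2 0.65). The number higher was 5 without diabetic library 2, 6 without control 2 or diabetic library 4, 7 without control 1 and 17 without diabetic library 1. Levels were low: Mki67, the marker of cycling cells, rose from 5.36 ± 0.437 to 8.88 ± 1.65 CPM (0.73 ± 0.15, adjusted p = 0.00962) and Cdk1, the mitotic kinase, from 1.23 ± 0.233 to 3.04 ± 0.687 CPM (1.30 ± 0.23). Mcm6, a subunit of the replication helicase, fell from 25.4 ± 1.61 to 20.01 ± 1.26 CPM (-0.35 ± 0.07). Of 27 immediate early and heat shock genes 15 rose (median 1.11), and all 15 belong to the immediate early kind, transcription factors and regulators that stimuli switch on within minutes. Fos, a subunit of AP-1, was at 4.16, 1.39, 0.615 and 2.13 CPM in the controls and 12.3, 17.9, 51.1 and 18.4 CPM in the diabetic libraries, with diabetic library 3 far above the others (3.59 ± 0.69, adjusted p = 0.0108; 3.16, adjusted p = 0.0918 without controls 3 and 4). Nr4a1, a nuclear receptor, rose from 9.32 ± 1.68 to 75.4 ± 25.9 CPM (3.02 ± 0.29) and Jund, another AP-1 subunit, from 104.7 ± 9.99 to 206 ± 19.4 CPM (0.98 ± 0.09, adjusted p = 0.000215). The heat shock genes Hspa1a and Hspa8 did not pass (-1.04 ± 0.45 and -0.24 ± 0.12). The time from death to lysis of the tissue is not given in the labels, and its part in these values was not tested. Of 29 genes of the integrated stress and unfolded protein responses 11 rose (median 0.30). Atf3, a stress transcription factor, rose from 2.49 ± 0.825 to 12.1 ± 4.81 CPM (2.28 ± 0.37, adjusted p = 0.00388) and Asns, asparagine synthetase, from 4.00 ± 0.809 to 9.51 ± 2.49 CPM (1.25 ± 0.21), while the chaperone gene Hspa5, the main reporter of endoplasmic reticulum stress, did not pass (0.28 ± 0.12).

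Genes of fat metabolism went both ways. Of 44 fatty acid oxidation and PPAR target genes 13 rose and 2 fell, with a median log2 of 0.07 (5 lower without control 4). Cyp4a14, a fatty acid omega-hydroxylase under PPAR-alpha control, was at 72.2, 71.8, 76.7 and 163 CPM in the controls and 348, 511, 735 and 535 CPM in the diabetic libraries. The rise was 5.56-fold (2.47 ± 0.35, adjusted p = 0.00311), with control 4 the highest control; Cyp4a genes are close copies. Ucp2, a mitochondrial carrier, rose from 94.8 ± 10.9 to 274 ± 44.4 CPM (1.53 ± 0.12, adjusted p = 0.000142). Of the oxidation genes with no pass, Cpt1a, the gate for entry into mitochondria, was at -0.14 ± 0.06 (adjusted p = 0.147) and Acadm, medium-chain acyl-CoA dehydrogenase, at -0.15 ± 0.09 (adjusted p = 0.301). Of 9 ketone body genes 3 fell and 1 rose (median -0.23), 33.3% and 11.1% against 9.29% and 10.8% of all genes. The number lower was 2 without control 1 or 2 or diabetic library 2, 3 or 4. Oxct1, which activates acetoacetate, fell from 1436 ± 135 to 894 ± 142 CPM (-0.68 ± 0.12, adjusted p = 0.00389) and Acat1, the thiolase of the next step, from 863 ± 89.2 to 618 ± 70.7 CPM (-0.48 ± 0.10).

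Genes of sterol and fatty acid synthesis fell in part. Of 38 tested 19 were lower and 3 higher (median -0.33); the number lower was 11 without diabetic library 3 or 4, and the number higher was 0 by edgeR without diabetic library 2. Scd1, the desaturase that makes oleate, was at 184, 144, 564 and 502 CPM in the controls and 92.0, 78.9, 60.4 and 49.2 CPM in the diabetic libraries. Controls 3 and 4 were well above 1 and 2, yet the lowest control exceeded every diabetic library (-2.31 ± 0.49, adjusted p = 0.0159; -2.25, adjusted p = 0.0507 without diabetic library 3). Its relative Scd2 fell from 111 ± 14.4 to 61.6 ± 5.31 CPM (-0.85 ± 0.10, adjusted p = 0.000840). The desaturases of polyunsaturated fat, Fads1 and Fads2, fell from 80.9 ± 11.8 to 51.9 ± 2.22 CPM and from 181 ± 10.7 to 115 ± 15.6 CPM (-0.64 ± 0.10 and -0.66 ± 0.10). Sc5d, a late enzyme of cholesterol synthesis, fell from 48.9 ± 2.86 to 33.9 ± 3.04 CPM (-0.53 ± 0.08, adjusted p = 0.00172), and Srebf1, the transcription factor that drives fatty acid synthesis, from 41.9 ± 4.09 to 31.8 ± 1.49 CPM (-0.40 ± 0.08). Fasn, fatty acid synthase, fell from 102 ± 38.6 to 54.8 ± 2.42 CPM (-0.90 ± 0.22, adjusted p = 0.0238), with control 3, which held fat transcripts, the highest at 159.7 CPM against 79.7 to 87.0 CPM in the other controls, and missed the threshold without diabetic library 2, 3 or 4 (adjusted p = 0.0590, 0.0634 and 0.0661).

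Glucose handling genes went both ways. Slc5a2, which encodes SGLT2, the main route of glucose reabsorption and the target of gliflozin drugs (chromosome 7, 128265657 to 128272430), was at 672, 661, 614 and 366 CPM in control libraries 1 to 4 and 248, 287, 255 and 361 CPM in diabetic libraries 1 to 4. It fell 2.01-fold (-1.01 ± 0.20, adjusted p = 0.00844); control 4 was only just above diabetic library 4, and without control 4 the log2 value was -1.17, adjusted p = 0.000384. Slc5a10, which encodes the mannose and fructose transporter SGLT5, was at 125, 132, 142 and 174 CPM in the controls and 357, 511, 448 and 433 CPM in the diabetic libraries. It was the 1 gene of 14 glucose and sugar transporters to rise (1.61 ± 0.13, adjusted p = 0.000129). Of these 14 transporters 7.14% were higher and 21.4% lower, against 10.8% and 9.29% of all genes. The basolateral transporter gene Slc2a2, which encodes GLUT2, was at 209 ± 32.8 CPM and 197 ± 32.1 CPM and did not pass (-0.09 ± 0.14). Slc2a4, which encodes the insulin-regulated GLUT4, fell from 28.3 ± 2.75 to 20.3 ± 2.74 CPM (-0.48 ± 0.11, adjusted p = 0.0113). The gluconeogenesis genes Pck1 and G6pc moved apart. Pck1, the cytosolic enzyme of the committed step, was at 2200, 1970, 2757 and 1494 CPM in the controls and 4618, 4650, 4380 and 4272 CPM in the diabetic libraries. The diabetic libraries were tight and 2.13-fold higher (1.09 ± 0.16, adjusted p = 0.00187). G6pc, which releases free glucose, fell from 594 ± 169 to 315 ± 31.0 CPM (-0.92 ± 0.18, adjusted p = 0.00724). Slc38a3, which takes up glutamine for ammonia formation, rose from 55.5 ± 9.26 to 136 ± 18.4 CPM (1.29 ± 0.13, adjusted p = 0.000450). In the gluconeogenesis and ammonia list 4 of 21 rose and 2 fell, and 2 rose without diabetic library 2 or 3.

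In glycolysis 4 of 27 genes rose and 1 fell, or 8 and 1 without control 4. With all 8 libraries that was 14.8% and 3.70%, against 10.8% and 9.29% of all genes. Pfkp, the platelet form of phosphofructokinase, rose from 45.5 ± 10.48 to 103 ± 9.23 CPM (1.18 ± 0.15, adjusted p = 0.00113) and Eno1, enolase, from 738 ± 27.8 to 1172 ± 117 CPM (0.67 ± 0.09). Miox, the inositol oxygenase found mainly in proximal tubule, was at 2008, 2092, 2102 and 1218 CPM in the controls and 892, 858, 778 and 961 CPM in the diabetic libraries. It fell 2.13-fold, and control 4 lay between the other controls and the diabetic group (-1.09 ± 0.16, adjusted p = 0.00216). Akr1b3, the aldose reductase that turns glucose into sorbitol, was at 40.0, 49.2, 227 and 47.9 CPM in the controls and 44.6, 40.1, 45.2 and 40.1 CPM in the diabetic libraries. The high control 3 set the control mean, and the gene did not pass (-1.10 ± 0.59, adjusted p = 0.243). Among insulin and IGF genes Igfbp1, which hepatocytes and kidney make when insulin is low, rose from 5.18 ± 1.93 to 13.6 ± 2.43 CPM (1.40 ± 0.24, adjusted p = 0.00424) and Trib3, an inhibitor of AKT, from 0.827 ± 0.167 to 2.91 ± 0.683 CPM (1.81 ± 0.25). Igfbp3, the main carrier of IGF1, fell from 305 ± 64.7 to 186 ± 16.7 CPM (-0.71 ± 0.14, adjusted p = 0.00669), while the insulin receptor gene Insr was at 92.1 ± 2.65 CPM and 91.6 ± 1.52 CPM (-0.01 ± 0.05).

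Markers of the proximal tubule were lower in part. In the S1/S2 list (first and middle segments) 8 of 18 fell and the other 10 did not pass (median log2 -0.30), against 9.29% of all genes; the count was 10 without control 4, 5 without control 1 or diabetic library 2 and 4 without diabetic library 3. Control 4 resembled the diabetic group in this list, with a mean of -0.39 on the log2 scale against 0.05 to 0.18 in controls 1 to 3 and -0.48 to -0.19 in the diabetic libraries. Slc6a19, which takes up neutral amino acids across the brush border, was at 445, 437, 357 and 311 CPM in the controls and 149.8, 145, 140.2 and 204 CPM in the diabetic libraries. It fell 2.42-fold without overlap (-1.28 ± 0.15, adjusted p = 0.000923). Slc5a12, a lactate transporter, fell from 244 ± 36.3 to 110.2 ± 12.4 CPM (-1.14 ± 0.12, adjusted p = 0.000450), and Hnf4a, the transcription factor of proximal identity, from 802 ± 72.9 to 612 ± 60.2 CPM (-0.39 ± 0.10, adjusted p = 0.0173; lost without control 1 or diabetic library 3 or 4, adjusted p = 0.0555, 0.0524 and 0.0528). The endocytic receptor genes Lrp2 (megalin) and Cubn (cubilin) fell from 1958 ± 219 to 1456 ± 133 CPM and from 485 ± 13.3 to 391 ± 19.04 CPM (-0.43 ± 0.10 and -0.31 ± 0.06); with a correction for transcript length neither passed (Lrp2 -0.28, adjusted p = 0.132, Cubn -0.17, adjusted p = 0.0997), and Lrp2 also missed the threshold without control 1 or diabetic library 2 or 3 (adjusted p = 0.0506, 0.0567 and 0.0582). Slc22a6, the organic anion transporter OAT1, did not pass (0.08 ± 0.23, adjusted p = 0.838).

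In the S3 list (last straight segment) 6 of 10 fell (median -0.70), and 3 did without control 1 or 2 or without diabetic library 2, 3 or 4. Acsm3, a medium-chain acyl-CoA ligase, was at 998, 1298, 1326 and 1021 CPM in the controls and 763, 581, 573 and 462 CPM in the diabetic libraries. It fell 1.95-fold (-0.96 ± 0.16, adjusted p = 0.00304). Slc22a7, the organic anion transporter OAT2, fell from 191 ± 33.1 to 85.9 ± 29.4 CPM (-1.15 ± 0.24, adjusted p = 0.0135), and Slc7a13, a cystine and aspartate transporter, from 1113 ± 85.3 to 677 ± 183 CPM (-0.72 ± 0.16, adjusted p = 0.0144). Without controls 3 and 4 neither of these passed (log2 -0.94, adjusted p = 0.122, and -0.65, adjusted p = 0.111), and 2 of 10 did. Several S3 genes are known to be induced by androgens. Of 13 genes higher in male kidney 4 fell (median -0.69; 9 without control 4, and 2 without control 1 or 2 or without diabetic library 2, 3 or 4), all 4 of them S3 genes. Of 8 genes higher in female kidney 2 rose and 1 fell (median 0.55), and 4 rose without control 4. That list summed to 783 to 1355 CPM in the controls and 1651 to 2143 CPM in the diabetic libraries. Xist was at most 0.227 CPM and the Y-linked gene Ddx3y at 41.5 to 57.6 CPM in all 8 libraries.

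The counts for transporters of amino acids and organic ions also depended on control 4. Of 23 amino acid transport genes 8 fell and 1 rose (13 lower without control 4, 5 without control 1 or 3 or diabetic library 2 or 4, and 3 without diabetic library 3). Of 33 organic ion and drug transport genes 8 fell and 1 rose (17 lower without control 4, 4 without diabetic library 2 or 3). Slc16a10, an aromatic amino acid transporter, fell from 61.0 ± 10.496 to 36.8 ± 3.53 CPM (-0.73 ± 0.12, adjusted p = 0.00350) and Slc22a5, the carnitine transporter OCTN2, from 309 ± 33.6 to 233 ± 5.62 CPM (-0.41 ± 0.08). Abcc4, an efflux pump of the brush border, was the 1 that rose, from 49.96 ± 10.9 to 90.4 ± 5.23 CPM (0.85 ± 0.13, adjusted p = 0.00243). The phosphate transporters diverged. Slc34a3, the proximal cotransporter NaPi-IIc (chromosome 2, 25228898 to 25234364), was at 74.1, 66.8, 68.8 and 50.6 CPM in the controls and 22.04, 23.2, 19.4 and 27.6 CPM in the diabetic libraries. It fell 2.82-fold, and the groups were clearly apart (-1.50 ± 0.13, adjusted p = 0.000253). Slc20a1, the transporter Pit-1 that many cell types carry, was at 38.6, 38.7, 33.5 and 35.5 CPM in the controls and 116, 125, 142 and 172 CPM in the diabetic libraries. It rose 3.79-fold (1.92 ± 0.12, adjusted p = 2.98e-05). The more abundant Slc34a1 did not pass (-0.50 ± 0.19, adjusted p = 0.0873), but did without control 4 (-0.67, adjusted p = 0.000749).

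Along the distal nephron, by the number of markers called, the falls were mostly in the collecting duct. Of 12 thick limb and distal tubule markers 2 fell and 1 rose, 16.7% and 8.33% against 9.29% and 10.8% of all genes. Egf, epidermal growth factor made by the thick limb and distal tubule, was at 1845, 1691, 1549 and 2356 CPM in the controls and 1319, 875, 1030 and 759 CPM in the diabetic libraries. The highest diabetic library, 1, lay below the lowest control, 3 (-0.90 ± 0.18, adjusted p = 0.00834). Umod, the urinary protein uromodulin of the thick limb, did not pass (-0.20 ± 0.22, adjusted p = 0.556), nor did Slc12a3, the thiazide-sensitive salt transporter (-0.25 ± 0.11, adjusted p = 0.123), which was called without control 4 (-0.35, adjusted p = 0.00339). Casr, the calcium-sensing receptor, fell from 38.1 ± 5.93 to 20.6 ± 2.29 CPM (-0.89 ± 0.12, adjusted p = 0.00125). Of 10 principal cell markers 5 fell and 1 rose. Aqp3, the basolateral water channel, fell from 81.4 ± 4.66 to 53.6 ± 5.03 CPM (-0.60 ± 0.08, adjusted p = 0.00103), whereas Aqp2, the channel that vasopressin moves to the surface, was at 122 ± 40.3 CPM and 122 ± 16.9 CPM (-0.00 ± 0.21). Subunits of the sodium channel ENaC, Scnn1b and Scnn1g, fell from 53.8 ± 2.99 to 41.4 ± 3.53 CPM and from 52.3 ± 6.40 to 36.7 ± 2.27 CPM (-0.38 ± 0.07 and -0.51 ± 0.09). Krt8, a keratin listed with both principal cells and injury, rose from 101.5 ± 4.65 to 140.1 ± 7.89 CPM (0.47 ± 0.06, adjusted p = 0.00112).

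Of 10 intercalated cell markers, which belong to the acid and base secreting cells of the collecting duct, 7 fell (median -0.57; 4 without diabetic library 2 or 3). Slc26a4, which encodes the bicarbonate exchanger pendrin, was at 91.5, 105.4, 90.0 and 60.8 CPM in the controls and 51.6, 46.9, 44.7 and 53.3 CPM in the diabetic libraries. It fell 1.77-fold (-0.82 ± 0.15, adjusted p = 0.00527), control 4 being the lowest control. Atp6v0d2, a subunit of the proton pump, fell from 42.4 ± 4.79 to 28.4 ± 1.27 CPM (-0.58 ± 0.08, adjusted p = 0.00165). Slc4a1, listed here and among red blood cell genes, fell from 55.2 ± 25.1 to 25.6 ± 1.42 CPM (-1.11 ± 0.27, adjusted p = 0.0236), and missed the threshold without any 1 of the diabetic libraries (adjusted p = 0.0501, 0.0633, 0.0612 and 0.0583). Of 19 acid-base transport genes 8 fell (4 without diabetic library 2, 5 without diabetic library 1 or 3), among them Rhcg, an ammonia channel, from 125 ± 7.89 to 90.1 ± 8.47 CPM (-0.47 ± 0.08), and Slc9a3, the sodium-proton exchanger of the proximal brush border, from 173 ± 19.2 to 133 ± 10.8 CPM (-0.38 ± 0.09). In the renin-angiotensin list 5 of 13 fell (3 without control 1 or without diabetic library 3 or 4). Ace, angiotensin-converting enzyme, was at 280.2, 301, 307 and 292 CPM in the controls and 218, 166, 144 and 129.8 CPM in the diabetic libraries. It fell 1.79-fold (-0.84 ± 0.14, adjusted p = 0.00345). Ren1, the renin gene, was at 47.2 ± 12.6 CPM and 46.0 ± 12.8 CPM (-0.04 ± 0.24).

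**Figure D4:**
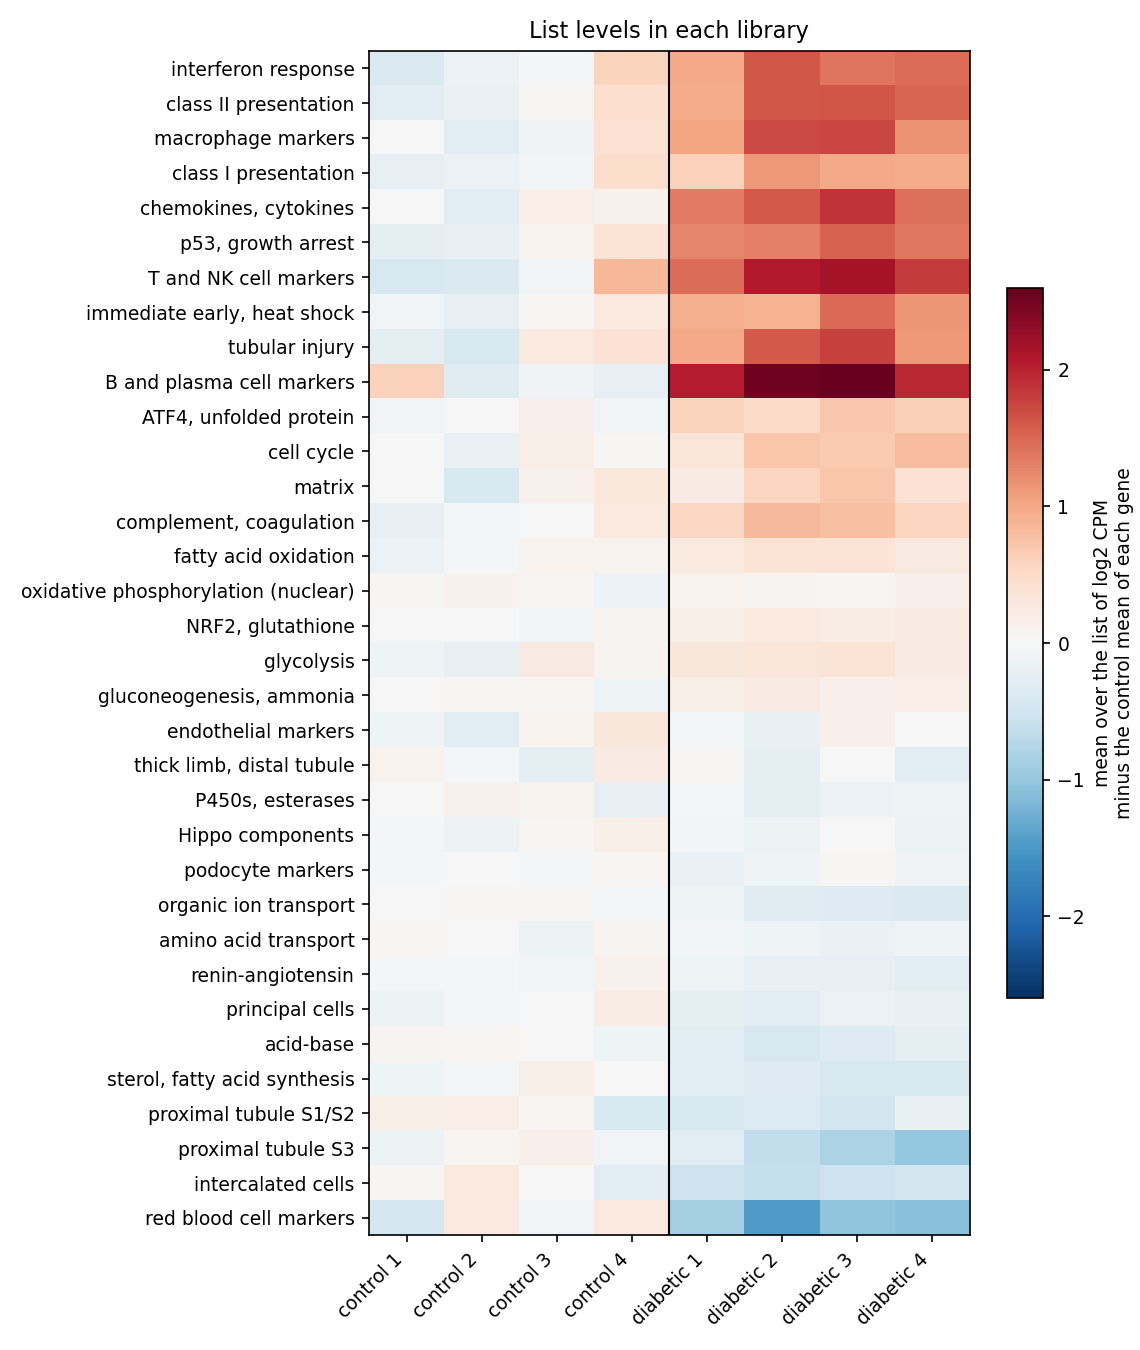
Each cell gives, for 1 library, the mean over a gene list of log2 CPM minus that gene's control mean, red above and blue below the controls. Diabetic libraries 2 and 3 are the darkest for macrophage and injury lists, control 4 is faintly red for interferon and T cell lists and faintly blue for proximal tubule S1/S2, and diabetic library 1 is the mildest for most immune lists.

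Glomerular and vascular markers passed the test unevenly in whole cortex. The share called lower was above the 9.29% of all genes for podocyte, mesangial and smooth muscle lists. In the mesangial list it was 1 gene, 14.3%, and the share called higher was the same, against 10.8% of all genes. Of 10 smooth muscle and renin markers 2 fell, of 7 mesangial markers 1 fell and 1 rose, and of 16 endothelial markers 0 fell. Of 16 podocyte markers 1 rose and 4 fell, but this count depended on the libraries and the method. The number lower was 0 by edgeR without control 1 or 2 or diabetic library 2, 1 without control 3 or diabetic library 3, and 2 without diabetic library 1 or 4, and with all 8 libraries it was 4 by DESeq2, 1 with the length offset and 0 by edgeR on library totals or with the replicate block and by limma on FPKM. Wt1, a podocyte transcription factor, fell from 9.00 ± 0.820 to 6.11 ± 1.15 CPM (-0.56 ± 0.15, adjusted p = 0.0286; lost without control 1 or 2 or diabetic library 2 or 3, adjusted p = 0.0642, 0.0534, 0.0594 and 0.0563). Nphs1, which encodes nephrin of the slit diaphragm, did not pass (-0.15 ± 0.09). Of 16 endothelial markers Egfl7, a secreted vessel factor, was the 1 called (0.32 ± 0.08, adjusted p = 0.0202; lost without control 3 or diabetic library 3 or 4, adjusted p = 0.0559, 0.0513 and 0.0642). The smooth muscle genes Myh11 and Lmod1 fell from 19.3 ± 4.95 to 11.5 ± 0.875 CPM and from 3.79 ± 0.940 to 1.89 ± 0.258 CPM (-0.75 ± 0.16 and -1.004 ± 0.21), and Igfbp5, listed with the mesangium, from 377 ± 52.6 to 228 ± 32.4 CPM (-0.72 ± 0.12). Serpine2, a protease inhibitor listed with the mesangium, rose from 11.6 ± 3.41 to 31.4 ± 5.24 CPM (1.43 ± 0.20, adjusted p = 0.00195). Of 10 fibroblast markers edgeR called 0 in either direction, with 0 higher and 0 lower at an unadjusted p under 0.05 and 0 higher and 0 lower by DESeq2.

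Matrix genes rose in part, 12 of 38 with 1 lower (median log2 0.42; edgeR called 0 to 2 lower with 1 library left out). The basement membrane genes Col4a1 and Lama5 rose from 211 ± 13.3 to 295 ± 29.8 CPM and from 123 ± 11.4 to 190.0 ± 11.0 CPM (0.49 ± 0.08 and 0.62 ± 0.08), and Loxl1, which crosslinks elastin, from 14.6 ± 1.64 to 25.7 ± 2.56 CPM (0.82 ± 0.10, adjusted p = 0.00104). The fibrillar collagen gene Col1a1 was at 24.6, 19.1, 26.8 and 26.4 CPM in the controls and 17.8, 49.2, 51.3 and 32.7 CPM in the diabetic libraries. Diabetic library 1 lay below every control and the other 3 above, so the groups overlapped (0.64 ± 0.31, adjusted p = 0.198); without diabetic library 1 it passed (0.87, adjusted p = 0.0107). Tgfb1, the main profibrotic cytokine, rose from 10.1 ± 1.24 to 15.9 ± 1.70 CPM (0.65 ± 0.11, adjusted p = 0.00401). Grem1, a secreted antagonist of bone morphogenetic proteins, was at 0.206, 0.0740, 0 and 0.0565 CPM in the controls and 1.42, 6.29, 3.59 and 3.30 CPM in the diabetic libraries. It was nearly absent from the controls and present in all 4 diabetic libraries (5.46 ± 0.75, adjusted p = 0.00178). Wnt10a, a Wnt ligand, rose from 0.280 ± 0.124 to 2.13 ± 0.111 CPM (2.91 ± 0.32, adjusted p = 0.000614), and Smad2, a transducer of TGF-beta signals, fell from 38.7 ± 1.60 to 29.5 ± 0.817 CPM (-0.39 ± 0.06).

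Nsd2, the gene of the series' title, did not pass in cortex. Its product dimethylates lysine 36 of histone H3, and the gene (chromosome 5, 33820725 to 33897975) was at 29.5, 33.7, 28.2 and 30.3 CPM in the controls and 30.9, 29.3, 28.7 and 29.8 CPM in the diabetic libraries. The groups overlapped (-0.04 ± 0.07, adjusted p = 0.757). Its relative Nsd1 fell from 102 ± 1.67 to 88.4 ± 3.83 CPM (-0.21 ± 0.05, adjusted p = 0.0197); with a correction for transcript length the call was lost (-0.06, adjusted p = 0.515), as it was without control 1 or diabetic library 2 or 4 (adjusted p = 0.0507, 0.0622 and 0.0612). Nsd3 and Setd2 did not pass (-0.21 ± 0.08 and -0.24 ± 0.08), though Setd2 did without control 3 (-0.29, adjusted p = 0.0364). Of 14 H3K36 methyltransferase and demethylase genes 1 rose and 3 fell, 7.14% and 21.4% against 10.8% and 9.29% of all genes. Without diabetic library 2 or 4 edgeR called 0 lower, and without diabetic library 3 it called 1. With all 8 libraries the number lower was 4 by DESeq2 and 0 by edgeR with the length correction, on library totals or with the replicate block and by limma on FPKM. The Hippo effector genes Yap1 (chromosome 9, 7931999 to 8004596) and Wwtr1, which encodes TAZ (chromosome 3, 57455649 to 57575910), did not pass (-0.01 ± 0.06, adjusted p = 0.963, and -0.11 ± 0.05, adjusted p = 0.128). The kinase genes upstream of them fell: Lats1 was at 50.5, 54.0, 50.05 and 56.95 CPM in the controls and 44.0, 36.8, 40.1 and 42.3 CPM in the diabetic libraries (-0.37 ± 0.07, adjusted p = 0.00583), and Lats2 fell from 48.1 ± 3.19 to 36.9 ± 2.46 CPM (-0.39 ± 0.07, adjusted p = 0.00458). No diabetic value reached the lowest control for either. Of 30 Hippo components 5 fell, 16.7% against 9.29% of all genes, and the other 25 did not pass. The number lower was 3 with the length correction and 2 by limma on log2(FPKM + 1) without a filter. Of 21 target genes of YAP 4 rose and 4 fell, and 7 rose and 5 fell without control 4 (2 rose without control 1, 2 or 3 or diabetic library 2 or 3, and 2 fell without control 1 or diabetic library 2, 3 or 4). Leaving out control 1, 2 or 3 or diabetic library 2 or 3 left 2 higher, and leaving out control 1 or diabetic library 2, 3 or 4 left 2 lower. Ccn1, a matricellular protein and immediate early gene, rose from 27.7 ± 3.52 to 84.4 ± 20.5 CPM (1.61 ± 0.17, adjusted p = 0.000725), whereas Ccn2, which encodes the profibrotic protein CTGF, fell from 123 ± 25.8 to 91.0 ± 3.23 CPM (-0.43 ± 0.13, adjusted p = 0.0433), a call that was kept only without control 2 when 1 library was left out (adjusted p = 0.0501 to 0.110 in the other 7 cases).

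Among the largest falls were genes outside these lists. Osr2, a zinc finger transcription factor of kidney development, had the largest fall under the same conditions of level and separation as Cxcl1, and was at 10.52, 9.64, 11.8 and 8.05 CPM in the controls and 1.49, 0.967, 1.32 and 1.28 CPM in the diabetic libraries. The groups were 7.93-fold apart (-2.99 ± 0.18, adjusted p = 2.78e-05). Ces1g, a carboxylesterase, fell from 41.4 ± 10.8 to 8.13 ± 2.77 CPM (-2.35 ± 0.27), Itih2, a hyaluronan-binding protein chain, from 16.7 ± 5.22 to 3.47 ± 1.72 CPM (-2.26 ± 0.34), and Cpne4, a calcium-dependent membrane-binding protein, from 11.9 ± 3.08 to 2.90 ± 0.980 CPM (-2.04 ± 0.28). Nap1l5, an imprinted gene, fell from 5.55 ± 0.981 to 1.49 ± 0.264 CPM (-1.89 ± 0.20, adjusted p = 0.000450) and Nepn, a small proteoglycan, from 12.1 ± 4.37 to 3.84 ± 0.534 CPM (-1.65 ± 0.27). In the P450 and esterase list 5 of 39 rose and 10 fell (4 lower without diabetic library 2, and 5 without control 1 or 2 or diabetic library 3 or 4). With all libraries that was 12.8% and 25.6%, against 10.8% and 9.29% of all genes. Ces2e, a carboxylesterase, rose from 16.6 ± 2.44 to 55.9 ± 5.86 CPM (1.75 ± 0.11, adjusted p = 2.98e-05) and Cyp2d12 fell from 78.9 ± 26.5 to 26.9 ± 4.92 CPM (-1.55 ± 0.28). Among NRF2 and glutathione genes 11 of 44 rose and 4 fell (7 lower without control 4, 2 without diabetic library 2). Mgst1, a microsomal glutathione transferase, was at 47.8, 45.2, 45.7 and 46.3 CPM in the controls and 92.9, 100.5, 98.9 and 102 CPM in the diabetic libraries. Both groups were tight and far apart (1.09 ± 0.05, adjusted p = 5.99e-06). Reep6, which shapes the endoplasmic reticulum, rose from 45.5 ± 3.42 to 127 ± 11.7 CPM and Tsc22d1, a transcriptional regulator, from 299 ± 19.997 to 744 ± 61.1 CPM (1.48 ± 0.08 and 1.31 ± 0.08). Of the most abundant genes, Ass1, the urea cycle enzyme that starts arginine synthesis in the proximal tubule, fell from 2278 ± 280.3 to 1331 ± 214 CPM (-0.78 ± 0.13, adjusted p = 0.00353). Clock genes had Per3, a repressor of the clock, falling from 34.9 ± 2.50 to 23.2 ± 1.06 CPM (-0.59 ± 0.07, adjusted p = 0.000812), with 2 of 21 higher and 4 lower (1 lower without diabetic library 2 or 3 or on library totals, 2 without control 2 or 3 or diabetic library 4). With all 8 libraries the share of clock genes called higher, 9.52%, was below the 10.8% of all genes. The share called lower was above the 9.29% of all genes, but rested on counts that changed with the libraries and the scaling. The number of clock genes higher was 0 by edgeR without control 2 or diabetic library 4, 1 without control 1 or 3 or diabetic library 3, and 4 without control 4.

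Short and long transcripts differed in direction, a pattern looked for after the data were seen. Of 80 ribosomal protein genes, which are short, 70 rose (median log2 0.42). Of 363 genes named Zfp, zinc finger proteins, 57 fell and 16 rose (median -0.15), 15.7% and 4.41% against 9.29% and 10.8% of all genes. The number lower was 29 to 35 without control 1 or without diabetic library 2, 3 or 4 and 34 by edgeR on library totals. Over protein-coding genes in 5 equal groups by merged exon length the median log2 was 0.15, 0.05, 0.01, -0.05 and -0.12 from shortest to longest. In the shortest group 19.2% of genes were called higher and 4.42% lower, and in the longest 6.25% and 20.2%. The 4 diabetic libraries each followed this order, controls 1 to 3 fell from the shortest to the longest group by less, and control 4 rose. With an offset for length fitted in each library 64 ribosomal protein genes were still called higher, and calls over all genes were 2007 higher and 1335 lower. The integrity of the RNA is not given in the labels, and its part in these values was not tested. Nuclear genes of oxidative phosphorylation, which are short, had 8 of 35 higher and 1 lower, 22.9% and 2.86% against 10.8% and 9.29% of all genes. The number higher was 13 by edgeR on library totals and by limma on log2(FPKM + 1), 2 with the replicate block, 4 with the length offset, 4 without control 1 or 3 or diabetic library 1, 2 or 4, and 5 without diabetic library 3. Cox5b, a subunit of cytochrome oxidase, rose from 104.6 ± 5.90 to 140.0 ± 9.55 CPM (0.42 ± 0.07, adjusted p = 0.00268).

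**Figure D5:**
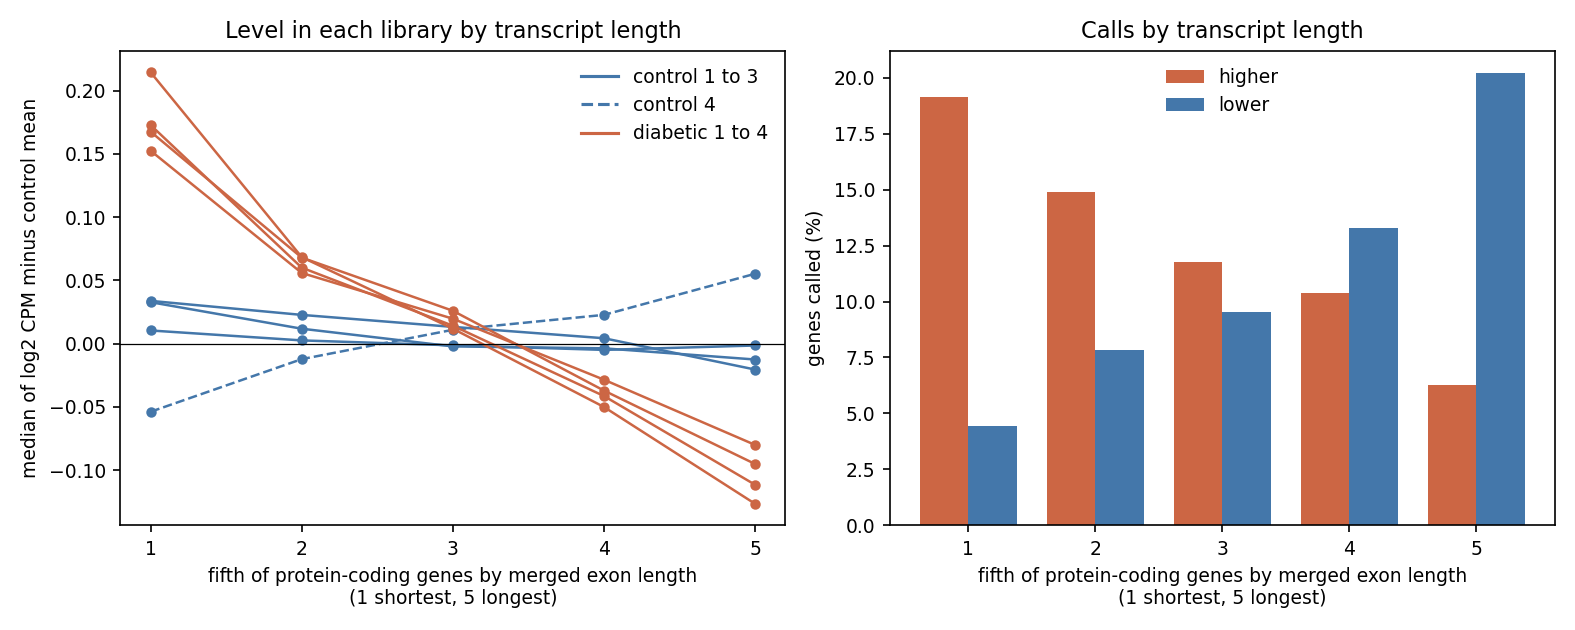
Left, the median of log2 CPM minus the control mean in each library for protein-coding genes in 5 equal groups by merged exon length; the diabetic libraries start at 0.15 to 0.21 in the shortest group and end at -0.13 to -0.08 in the longest, and control 4 runs the other way. Right, the percentage of genes called higher and lower in each group, from 19.2% and 4.42% in the shortest to 6.25% and 20.2% in the longest.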

How the data were processed

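RNA of 8 cortex libraries (4 per group) was extracted with RNeasy columns and made into libraries with a SMARTER kit, per the labels' protocols. The authors deposited estimated counts per gene, stored as whole numbers, and FPKM values; builds GRCm38 and mm10 are named per the submitters' processing notes, and the aligner, counter, annotation and strand setting were, for these files, not given in the sources used here. Genes with close copies, such as immunoglobulin, H2, Cyp4a, Cyp2d, Slc22a, Ces1 and globin genes, are therefore uncertain one by one. Identifiers were matched to GENCODE M21 (31953 of 34264; the other 2311 held 0.320% of counts). Totals ran from 57473100 to 72352656 counts, so counting error is small beside the spread between libraries except for genes near 0.

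Genes were filtered with filterByExpr, scaled by TMM and tested with edgeR 4.0.16 (quasi-likelihood, robust, group as the 1 term, R 4.3.3) with Benjamini-Hochberg adjustment over all 19228 genes. The procedure was checked on simulated data. Alternatives were DESeq2 1.42.0, other scalings and filters, limma 3.58.1 on log2(FPKM + 1) or log2(FPKM + 0.1), a replicate block and each library left out. A length offset and leaving out controls 3 and 4 were chosen after seeing the data, as were the immunoglobulin, ribosomal protein and Zfp groups. The rule named the title genes, the 15 largest rises and falls of called genes whose log2 CPM averaged 1 or more and whose groups were separate, the 10 most abundant called genes, the 10 smallest adjusted p and up to 4 genes of each list; other genes were named after their values were seen, and a few genes that the rule covers are not reported here. Comparison, lists and rule were chosen with earlier results of these data known. The glomerular files were not used here.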

Additional observations from a re-analysis of the deposited data

Results flagged for a closer look

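In 45 cases 1 library lay far from the other 3 of its group, its gap to the nearest exceeding Dixon's limit as a share of the group's range. Of 542 groups tested, 4 libraries for each gene named, chance puts about 1 in 20 past this limit. The number in brackets is the gap divided by the range. Control 1 was the highest of its group for Csf3r (0.877), S100a8 (1.0), Ighg2c (0.901) and Heph (0.846). Control 1 was the lowest of its group for Atf3 (0.841) and Smyd2 (0.859). Control 2 was the lowest of its group for Efhd2 (0.883). Control 3 was the highest of its group for Ces1g (0.946), Krt8 (0.831), Cidec (0.991), Plin4 (0.85), Akr1b3 (0.950), Fasn (0.909) and Krt20 (0.899). Control 3 was the lowest of its group for Igha (0.868). Control 4 was the highest of its group for Havcr1 (0.838), Lcn2 (0.917), Cyp4a14 (0.946), Cyp4a10 (0.879), Bst2 (0.838), Ash1l (0.854), Csf1r (0.897), Ifit3 (0.953) and Slc4a1 (0.871). Control 4 was the lowest of its group for Miox (0.894), Xylb (0.877), Slc22a22 (0.856), Hsd11b2 (0.898), Slc22a6 (0.885) and Slc34a1 (0.905). Diabetic library 1 was the highest of its group for Itih2 (0.848), Angptl7 (0.836), Plin4 (0.900), Acat1 (0.8293), G6pc (0.860), Nr1d2 (0.839) and Hspa1a (0.885). Diabetic library 2 was the lowest of its group for Scd2 (0.891). Diabetic library 3 was the highest of its group for Fos (0.845) and Atp6v0d2 (0.837). Diabetic library 3 was the lowest of its group for Lamp1 (0.862). Diabetic library 4 was the highest of its group for Slc6a19 (0.85), Slc2a12 (0.840) and Bax (0.832). Diabetic library 4 was the lowest of its group for Csf1r (0.887).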

How the results depend on the processing

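No named gene called in either of the fits compared changed direction in any of the 20 alternatives. The estimate changed sign in at least 1 for 17 named genes that did not pass, Nsd2, Yap1, Aqp2 and Insr among them. Of 209 named genes called, 153 were called in every alternative that tested them and 177 whichever single library was left out. The number of genes called was 2401, with 787 lower, by limma on log2(FPKM + 1) without a filter, where more genes were tested. Leaving out 1 library gave 2528 to 4715 calls, 1420 to 2474 higher and 1090 to 2241 lower; the fewest came without diabetic library 2, 3 or 4 (2528, 2538 and 2542), the most without control 4, and fewer samples entered each. Other settings, apart from the replicate block below, kept these counts within 1.5 times: DESeq2 called 2628 higher and 2298 lower, and edgeR on library totals 2326 and 1335. On library totals 5 amino acid transport genes, 2 targets of YAP and 1 thick limb marker were lower.

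Replicate numbers gave no sign of pairing: deviations of libraries with the same number correlated at 0.00, 0.04, 0.02 and -0.10. With the replicate number as a block edgeR called 2375 genes, 1389 higher and 986 lower; the block uses 3 more terms, and the cause of the drop was not tested. Depth limits genes such as Tnf and S100a8, which lie near 0 CPM.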

Other observations

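Lysosome and iron genes also moved in part, by edgeR's test. Of 28 lysosome and autophagy genes 6 rose and 1 fell, 21.4% and 3.57% against 10.8% and 9.29% of all genes. The number that rose was 3 without control 3 or diabetic library 2 or 4. Ctsd, the protease cathepsin D, rose from 635 ± 42.3 to 936 ± 76.1 CPM (log2 0.56 ± 0.08, adjusted p = 0.00195), and Hexa, a hexosaminidase subunit, from 40.5 ± 2.29 to 60.4 ± 6.28 CPM (0.58 ± 0.08). Of 19 iron genes 3 rose and 4 fell (15.8% and 21.1%, against 10.8% and 9.29% of all genes), and 1 rose without diabetic library 2, 3 or 4. Tfrc, the transferrin receptor that takes iron into cells, fell from 93.4 ± 18.8 to 61.4 ± 4.58 CPM (-0.60 ± 0.13, adjusted p = 0.0109), Heph, a copper oxidase needed for iron export, fell from 14.4 ± 0.770 to 9.72 ± 0.348 CPM (-0.56 ± 0.08), and Bmp6, which drives hepcidin in the liver, rose from 55.8 ± 5.05 to 92.8 ± 2.85 CPM (0.73 ± 0.07, adjusted p = 0.000281).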
